A study of Mus musculus with 6 samples.

Results

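The embryonic and adult globins and their erythroid companions were followed in mouse teratomas as a set of 9 genes: Hba-a1, Hba-x, Hbb-b1, Hbb-y, Hbb-bh1, Alas2, Klf1, Epor and Slc4a1. They were chosen by name, as every probe whose gene name in the scanner output is one of the 9, which gave 13 of the 56583 probes kept and 9 of the 22946 genes tested. The teratomas, tumours of mixed tissue, grew from mouse embryonic stem cells injected under the skin of the flank of immunodeficient BALB/c Nude mice, and the mice were divided at random into 3 that received a miR-124a-3p mimic (the miR-124a tumours) and 3 that received a miRNA negative control (the control tumours). In both groups the RNA was injected into the tumour with the carrier Atelogen QG at 15 µg per 100 µL every 3 days until day 28, starting once a tumour could be felt and had reached at least 100 mm3, about 10 days after the cells were given. RNA came from one piece of each tumour after it was cut in 2, and was measured on 1-colour arrays with 1 array per tumour. All 6 tumours share the host strain, the stem cells and the carrier, and the labels name neither the stem cell line nor the age or sex of the mice.

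Haemoglobin is made of alpha-like and beta-like globin chains that each hold a heme group. In the mouse embryo the first red cells arise in the yolk sac and use the embryonic chains encoded by Hba-x (zeta), Hbb-y (epsilon y) and Hbb-bh1 (beta h1), together with adult alpha chains, whereas red cells of the fetal liver and adult marrow use Hba-a1, Hba-a2 and the adult beta genes. Teratomas are fed by the blood of the host, and nude mice lack mature T cells but make red cells of their own. The array cannot tell the RNA of host red cells from that of graft red cells, and in these bulk samples fewer cells of a type and less RNA per cell cannot be told apart.

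The probes that stood for the globins are short stretches of the transcripts, and 3 that lie in coding sequence are shown because the adult and embryonic chains are told apart by them. In the mm9 build the Hba-a1 coding probe lies at chr11:32183955-32184014 on the plus strand, the Hba-x probe at chr11:32177668-32177727 on the plus strand, and the Hbb-y probe at chr7:111000448-111000507 on the minus strand. They are given 5′ to 3′ in transcript sense.
Hba-a1 coding probe: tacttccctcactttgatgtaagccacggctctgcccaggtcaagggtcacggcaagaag
Hba-x probe: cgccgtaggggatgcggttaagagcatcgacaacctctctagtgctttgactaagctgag
Hbb-y probe: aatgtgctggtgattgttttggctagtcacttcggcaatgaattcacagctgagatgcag

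The brightest Hba-a1 probe, which stood for the gene in the tests, lies further 3′ at chr11:32184427-32184486 and shares a run of 59 of its 60 bases with the probe of the neighbouring copy Hba-a2, so those 2 genes cannot be told apart by it. The Hbb-b1 probe, at chr7:110976379-110976438 on the minus strand, matched the first transcript bases of the adult beta gene Hbb-bs at 46 of the 46 bases that could be compared and those of Hbb-bt at 38 of 45. Over those bases it cannot tell Hbb-b1 from Hbb-bs, and whether Hbb-bt RNA binds it was not tested.

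The promoters of 4 genes are shown because Hba-a1 and Alas2 were highest in miR-124a tumour 3, whereas the embryonic Hba-x and Hbb-y were highest in control tumour 3. Each is the 250 bases before the transcript start in RefSeq on GRCm38.p6, with 2 motifs of erythroid regulators in capitals on either strand: CACCC or its reverse complement GGGTG, the core that KLF1 is known to bind, and GATAA or its reverse complement TTATC, the core of GATA factor sites. The regions are chr11:32283422-32283671 on the plus strand for Hba-a1, chrX:150547167-150547416 on the plus strand for Alas2, chr11:32276350-32276599 on the plus strand for Hba-x and chr7:103853208-103853457 on the minus strand for Hbb-y.
Hba-a1 promoter: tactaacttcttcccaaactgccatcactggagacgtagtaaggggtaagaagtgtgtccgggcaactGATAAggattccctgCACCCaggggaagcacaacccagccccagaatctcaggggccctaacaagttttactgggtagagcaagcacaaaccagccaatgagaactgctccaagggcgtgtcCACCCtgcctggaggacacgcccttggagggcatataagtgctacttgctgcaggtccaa
Alas2 promoter: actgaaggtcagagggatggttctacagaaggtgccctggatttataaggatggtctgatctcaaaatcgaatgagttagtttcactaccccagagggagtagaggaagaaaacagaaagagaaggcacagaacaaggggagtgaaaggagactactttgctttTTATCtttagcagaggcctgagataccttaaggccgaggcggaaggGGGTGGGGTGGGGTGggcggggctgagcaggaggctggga
Hba-x promoter: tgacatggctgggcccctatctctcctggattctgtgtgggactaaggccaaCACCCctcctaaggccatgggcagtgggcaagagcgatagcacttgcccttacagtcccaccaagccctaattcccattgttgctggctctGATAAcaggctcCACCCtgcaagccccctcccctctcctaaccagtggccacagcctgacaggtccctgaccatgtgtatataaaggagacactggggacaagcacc
Hbb-y promoter: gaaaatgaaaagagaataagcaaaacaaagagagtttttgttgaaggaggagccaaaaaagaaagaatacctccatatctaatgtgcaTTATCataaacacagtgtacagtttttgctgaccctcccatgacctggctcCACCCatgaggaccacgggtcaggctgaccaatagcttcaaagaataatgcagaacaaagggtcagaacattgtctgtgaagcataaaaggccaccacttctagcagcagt

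A promoter was in the table for 6 of the 9 genes: these 4, Klf1 and Epor. Hbb-b1, Hbb-bh1 and Slc4a1 are named only. Each of the 6 promoters held at least 1 CACCC and exactly 1 GATAA, counting both strands, and no base was shared between the 2 motifs. Over all 32851 promoters of the same length, 52.0% held CACCC and 22.6% held GATAA. The Alas2 promoter had 3 CACCC motifs, in the run of GGGTG close to the start. There were 2 in the promoters of Hba-a1, Hba-x and Epor, and 1 in those of Hbb-y and Klf1. A match of these letters is a description of the sequence and not a measured binding site.

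The arrays were alike in quality. Between 63.4% and 65.9% of probes were well above background on each array, no spot was saturated, and the 75th percentile of the processed intensity lay between 198 and 223. All 6 arrays sat on 1 slide in 1 scan, with the miR-124a arrays in the second row of the slide and the control arrays in the first, so slide row and treatment cannot be told apart. Values are given as scaled signal, in which 100 is the 75th percentile of an array, and levels are compared only within a probe. The sums over a list given below are weighted to its brightest probes. Of the 22946 genes tested with limma, 730 or 3.18% passed a Benjamini-Hochberg adjusted p of 0.05, of which 115 (0.501%) were higher and 615 (2.68%) lower in miR-124a tumours. The median log2 fold change of all genes tested was −0.00072 and 27.1% had an unadjusted p under 0.05. These are the shares to set beside the counts of the same fit for each gene list below. Leaving out 1 tumour left 0 to 365 genes called, depending on the tumour. The labels give 1 mouse per tumour only through the size of the groups, and the p-values measure the spread between these tumours.

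Of the 9 genes, 1 passed the test, Klf1, against the 3.18% of all genes. The adult globins, Alas2 and Slc4a1 varied several-fold among tumours within each group, with the tumours numbered 3 of both groups at the top. The embryonic globins were read in all 3 miR-124a tumours but varied among the control tumours by at least 3.84-fold for Hba-x, 13.6-fold for Hbb-bh1 and 17.5-fold for Hbb-y, bounds because the low control tumours were not well above background. All 9 passed the filter on dim probes, but Hba-x, Hbb-y, Hbb-bh1 and Klf1 did so through the miR-124a group alone, so their number among the genes tested is no support for a difference.

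**Figure D1:**
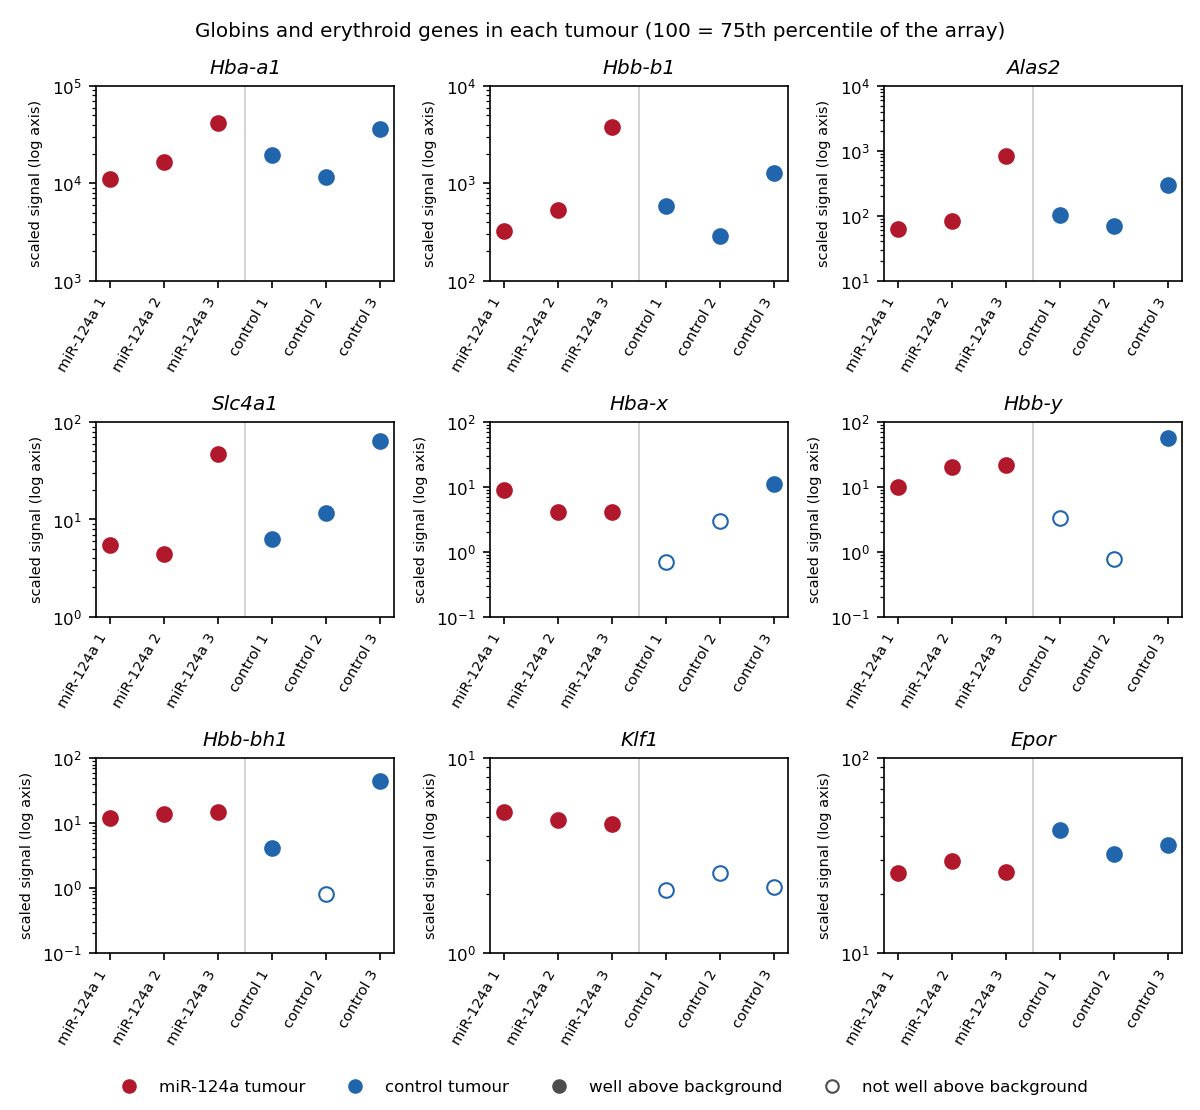
Scaled signal of the probe that stands for each gene in the 3 miR-124a tumours (red, left) and the 3 control tumours (blue, right), on log axes where 100 is the 75th percentile of the array. Filled points were well above background and open points were not. The tumours numbered 3 stand highest for Hba-a1, Hbb-b1, Alas2 and Slc4a1, and control 3 stands highest for Hba-x, Hbb-y and Hbb-bh1. Only Klf1 and Epor have groups that do not overlap, against 35.4% of all genes tested.

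Hba-a1 encodes the adult alpha chain and was bright in every tumour. Its scaled signal was 11086, 16403 and 42057 in miR-124a tumours 1 to 3, against 19547, 11547 and 36382 in control tumours 1 to 3. The highest value of each group came from the tumour numbered 3 and the groups overlapped fully. The group means were 23182 ± 16561 in miR-124a tumours and 22492 ± 12677 in control tumours (SD, n = 3 each). The log2 fold change was −0.03 ± 0.60 (SE), with a 95% confidence interval of −1.48 to 1.41 and a limma adjusted p of 0.975. That interval leaves room for changes of more than 2-fold in either direction.

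Hbb-b1 encodes an adult beta chain and gave the same order of tumours at the top. It had a scaled signal of 321, 534 and 3809 in miR-124a tumours, against 589, 289 and 1269 in control tumours. MiR-124a tumour 3 stood far above the other 5 and the remaining miR-124a tumours lay within the range of the controls. The log2 fold change was 0.53 ± 1.00 (SE, limma adjusted p = 0.757, 95% confidence interval −1.88 to 2.94).

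Alas2 encodes the erythroid form of 5-aminolevulinate synthase, the first enzyme of heme synthesis. Its scaled signal was 62.1, 82.4 and 843 in miR-124a tumours, against 102, 68.3 and 301 in control tumours. Again miR-124a tumour 3 was highest, control tumour 3 next, and the other 4 lay close together. The log2 fold change was 0.35 ± 1.08 (SE, limma adjusted p = 0.858).

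Slc4a1 encodes band 3, the anion exchanger of the red cell membrane. It had a scaled signal of 5.45, 4.38 and 46.7 in miR-124a tumours, against 6.37, 11.6 and 63.7 in control tumours. Here control tumour 3 was above miR-124a tumour 3, both stood apart from the other 4, and the groups overlapped. The log2 fold change was −0.69 ± 1.18 (SE, limma adjusted p = 0.730).

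The 4 genes had the tumours numbered 3 at the top in common, but their profiles were not equally alike. Likeness was measured as the root mean square difference between centred log2 profiles over the 6 tumours, where 0 is an identical profile. It is a description over 6 arrays that share their scaling. The profiles were not scaled to a common range, so the size of the spread counts in it as well as the order of the tumours. Alas2 and Hbb-b1 differed by 0.232, which made Hbb-b1 the nearest of 22945 genes to Alas2 and Alas2 the second nearest to Hbb-b1. Alas2 was the third nearest of all genes to Slc4a1, at 0.787. From Hba-a1, whose brightest probe had the narrowest range of the 4, Hbb-b1 was at 0.610, Alas2 at 0.697 with rank 2209, and Slc4a1 at 0.987 with rank 21735. Epor, with a narrow range, was at 0.769. Counted from the other side, Hba-a1 had rank 24 from Hbb-b1, 34 from Alas2 and 27 from Slc4a1, where Epor had rank 13261 from Slc4a1. Among genes well above background on all 6 arrays and outside the set, those nearest to Hba-a1 were Hba-a2 at 0.0113, H2-T10, a non-classical class I histocompatibility gene, at 0.351 and Tent5c, a poly(A) polymerase gene, at 0.355, of 16795 genes compared. Tent5c, which is also in the list of red cell enzymes and maturation below, was read by several probes. The probe that stood for it had 72.8, 83.3 and 259 in miR-124a tumours, against 84.1, 109 and 199 in control tumours, again highest in the tumours numbered 3. Another probe, at 68.7, 70.4 and 240 against 86.6, 101 and 163, had the same pattern. A further probe, also well above background on all 6 arrays, lacked it, at 40.9, 45.7 and 42.4 in miR-124a tumours, against 52.1, 54.0 and 46.2 in control tumours.

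The size of the spread depended on the probe as well as on the gene. The brightest Hba-a1 probe spanned 3.79-fold from its lowest to its highest tumour, whereas the coding probe of the same gene spanned 9.63-fold. On that coding probe the scaled signal was 1586, 2476 and 14902 in miR-124a tumours, against 2501, 1547 and 6119 in control tumours, and its log2 fold change was 0.44. MiR-124a tumour 3 was the highest on both probes, but by a wider margin on the coding probe. The other adult globin probes gave 9.52-fold for Hbb-b2 and 7.88-fold for Hbb-bt in miR-124a tumour 3 over the lowest tumour of each, against 4.37-fold and 5.15-fold in control tumour 3. The cause of the difference between the Hba-a1 probes was not tested.

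**Figure D2:**
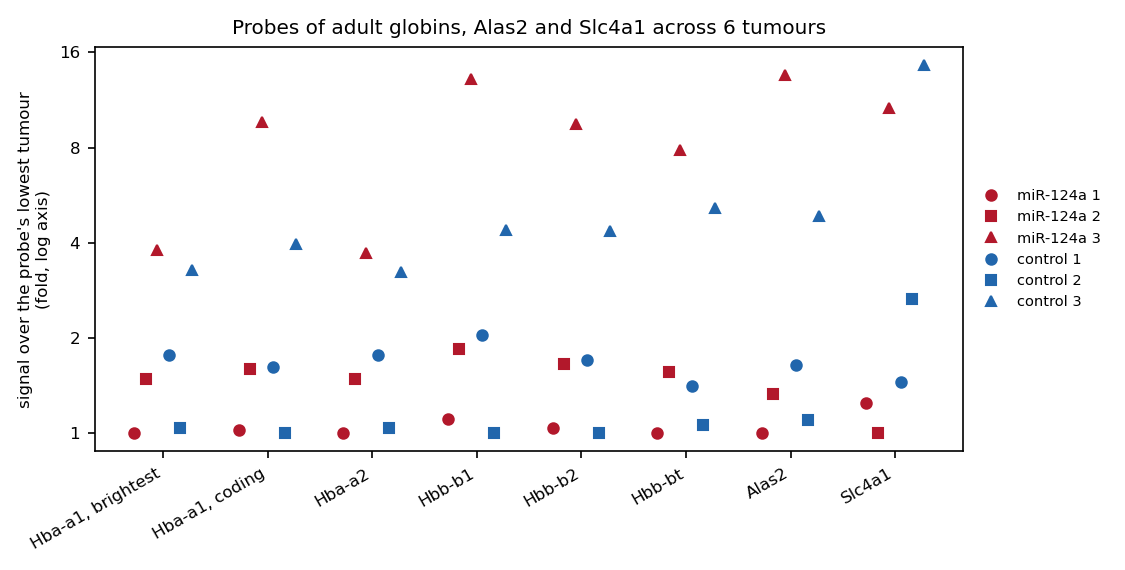
Signal of each probe in each tumour divided by the lowest tumour of that probe, on a log axis, for miR-124a tumours (red) and control tumours (blue), with circles, squares and triangles for tumours 1, 2 and 3. The triangles stand apart on every probe. MiR-124a tumour 3 reaches 13.6-fold for Alas2 and 13.2-fold for Hbb-b1 but 3.79-fold for the brightest Hba-a1 probe, and control tumour 3 is the higher of the triangles only for Slc4a1.

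The embryonic beta-like globins followed another profile. Hbb-y had a scaled signal of 9.94, 20.2 and 22.1 in miR-124a tumours, against 3.31, 0.773 and 57.3 in control tumours. All 3 miR-124a arrays read it well above background, against 1 of 3 control arrays, that of tumour 3, which was the highest of all 6. The 3 miR-124a tumours thus lay between the low control tumours and the high one, and the groups overlapped. The mean scaled signal was 17.4 ± 6.54 in miR-124a tumours and 20.5 ± 32.0 in control tumours (SD, n = 3 each). The fitted log2 fold change was 1.64 ± 1.48 (SE, limma adjusted p = 0.502). It is no measured fold, since control tumours 1 and 2 were not well above background. Taking the higher of the probe's signal and the lowest signal well above background on those arrays, the log2 difference was 0.95. The linear and the log2 difference have opposite signs, and control tumour 3 alone carries the linear mean of its group.

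Hbb-bh1 had a scaled signal of 12.2, 14.0 and 14.7 in miR-124a tumours, against 4.10, 0.815 and 44.4 in control tumours. The miR-124a tumours were within 1.20-fold of each other, while the controls spanned at least 13.6-fold, with tumour 2 not well above background, and control tumour 3 was again the highest of all. Its fitted log2 fold change was 1.36 ± 1.34 (SE, limma adjusted p = 0.539), likewise no measured fold. Taken as for Hbb-y, the log2 difference was 0.69. Its second probe was not well above background on any array. Hbb-y and Hbb-bh1 were each the nearest of 22945 genes to the other, with a root mean square difference of 0.375.

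Hba-x, the embryonic alpha-like gene, had a scaled signal of 8.88, 4.19 and 4.18 in miR-124a tumours, against 0.689, 2.97 and 11.3 in control tumours. All 3 miR-124a arrays and 1 control array read it well above background, and control tumour 3 was the highest while miR-124a tumour 1, not tumour 3, was next. The fitted log2 fold change was 0.92 ± 0.97 (SE, limma adjusted p = 0.571), again no measured fold. Taken as for Hbb-y, the log2 difference was 0.17. With the lowest probe called well above background at a scaled signal of 2.93 to 3.60 on the 6 arrays, several of these values lie near the limit of detection.

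Leaving out control tumour 3 moved the fitted log2 fold change of Hbb-y to 3.36 with a limma adjusted p of 0.0776, and that of Hbb-bh1 to 2.90 with 0.0908. The control tumours that remain then read Hbb-y on neither array and Hbb-bh1 on 1 of 2 above background, so these fitted values are no measured folds: Hbb-y was at least 4.99-fold and Hbb-bh1 at least 3.71-fold higher in miR-124a tumours than in control tumours 1 and 2. Leaving out control tumour 2 moved them to 0.26 for Hbb-y and 0.013 for Hbb-bh1. Background correction by normexp with quantile scaling gave 0.082 for Hbb-y and 0.062 for Hbb-bh1. No processing alternative called either gene. Of 8 markers of yolk sac and fetal liver endoderm, 2 were highest of all 6 tumours in control tumour 3, Afp and Alb, and the other 6 were not. Afp, alpha-fetoprotein, had a scaled signal of 51.9, 12.7 and 37.7 in miR-124a tumours, against 47.3, 47.8 and 354 in control tumours. Alb, albumin, had 2.83, 1.93 and 4.36 in miR-124a tumours, against 10.0, 12.8 and 65.8 in control tumours. Over the 8 genes of that list the median log2 fold change was −0.75, with 4 genes above 0 and 4 below. The summed scaled signal was 1889 to 5138 in miR-124a tumours and 2374 to 2664 in control tumours. Most of that sum was Ttr, at 1578, 4793 and 1538 in miR-124a tumours, against 2249, 2047 and 1864 in control tumours. The part of these markers in the globin values was not tested.

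**Figure D3:**
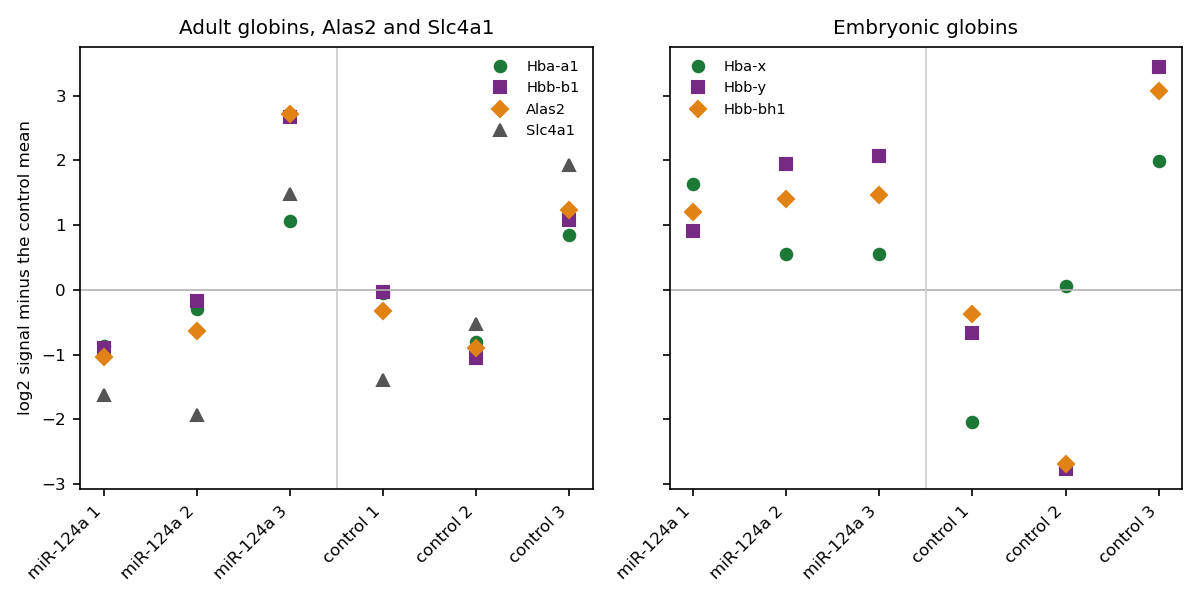
Log2 signal of each gene minus its mean over the control tumours, by tumour, with miR-124a tumours on the left of each panel and control tumours on the right. In the left panel Hba-a1, Hbb-b1, Alas2 and Slc4a1 are highest in the tumours numbered 3 of both groups. In the right panel Hbb-y and Hbb-bh1 lie between 0.91 and 2.07 in all miR-124a tumours and between −2.77 and 3.44 in the control tumours.

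The embryonic and adult chains of a cluster were then set against each other within each tumour. Relative to the control mean, log2 Hba-x minus log2 Hba-a1 was 2.50, 0.85 and −0.51 in miR-124a tumours, against −2.00, 0.87 and 1.13 in control tumours. The difference between the groups was 0.95 with a two-sided exact permutation p of 0.7, where 0.1 is the smallest p that 3 against 3 allows. Log2 Hbb-y minus log2 Hbb-b1 was 1.82, 2.11 and −0.60 in miR-124a tumours, against −0.65, −1.71 and 2.36 in control tumours, a difference of 1.11 with an exact permutation p of 0.6. The values overlapped in both clusters. The tumours numbered 3 went opposite ways on the tested probes. In both clusters the embryonic minus adult difference was lowest of its group in miR-124a tumour 3. In control tumour 3 it was highest of its group, which describes 1 tumour on each side. With the Hba-a1 coding probe, however, Hba-x minus Hba-a1 was slightly higher in control tumour 2 than in control tumour 3. Hba-x and Hbb-y were not well above background in control tumours 1 and 2, so the differences there are no measured values.

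The spread over the 6 tumours was set beside that of all genes tested. The highest tumour over the lowest had a median of 1.50-fold over all 22946 genes, a 95th percentile of 3.61-fold and a 99th percentile of 7.77-fold. The embryonic globins have lower bounds only, since their lowest tumours were not well above background: Hbb-y spanned at least 17.5-fold, Hbb-bh1 at least 13.6-fold and Hba-x at least 3.84-fold, taking for each such array the higher of the probe's own signal and the lowest signal of any probe well above background. Slc4a1 spanned 14.6-fold, Alas2 13.6-fold and Hbb-b1 13.2-fold, all within the first 94 genes. Klf1 spanned at least 1.82-fold, also a bound, and Epor 1.66-fold.

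Klf1 encodes the zinc finger factor that switches on adult beta-globin and many other red cell genes. Its scaled signal was 5.32, 4.80 and 4.59 in miR-124a tumours, against 2.10, 2.59 and 2.19 in control tumours. All 3 miR-124a tumours were above all 3 control tumours, as was the case in one direction or the other for 35.4% of all genes tested. The probe passed the scanner's background test on 3 of 3 miR-124a arrays and on none of the control arrays, so its fold is a bound: at least 1.61-fold higher in miR-124a tumours, taking for each control array the lowest signal of any probe well above background. The mean scaled signal was 4.91 ± 0.376 in miR-124a tumours and 2.29 ± 0.261 in control tumours (SD, n = 3 each), with a limma adjusted p of 0.0215. The fitted log2 fold change of 1.10 is no measured fold, since the control values were below the background limit and the probe passed the filter through the miR-124a group alone.

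The call for Klf1 rested on a dim probe. The second Klf1 probe was not well above background on any array and gave a log2 fold change of 0.13. With normexp correction the tested probe also gave 0.13 with an adjusted p of 0.169, and the adjusted p was 0.0521 without the filter on dim probes. It was not called without control tumour 1, control tumour 2, miR-124a tumour 1 or miR-124a tumour 2, with log2 fold changes of 1.04 to 1.19 and adjusted p-values of 0.0352 to 0.0981 when any 1 tumour was left out.

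Epor encodes the erythropoietin receptor, which red cell progenitors need to survive and mature. It had a scaled signal of 25.8, 29.7 and 25.9 in miR-124a tumours, against 42.8, 32.1 and 35.8 in control tumours. All 3 miR-124a tumours were below all 3 control tumours, where 35.4% of all genes tested had groups that did not overlap. The log2 fold change of −0.44 ± 0.14 (SE) had a limma adjusted p of 0.115 and did not pass. Across all processing alternatives it stayed between −0.53 and −0.25, with adjusted p-values of 0.0872 to 0.310.

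**Figure D4:**
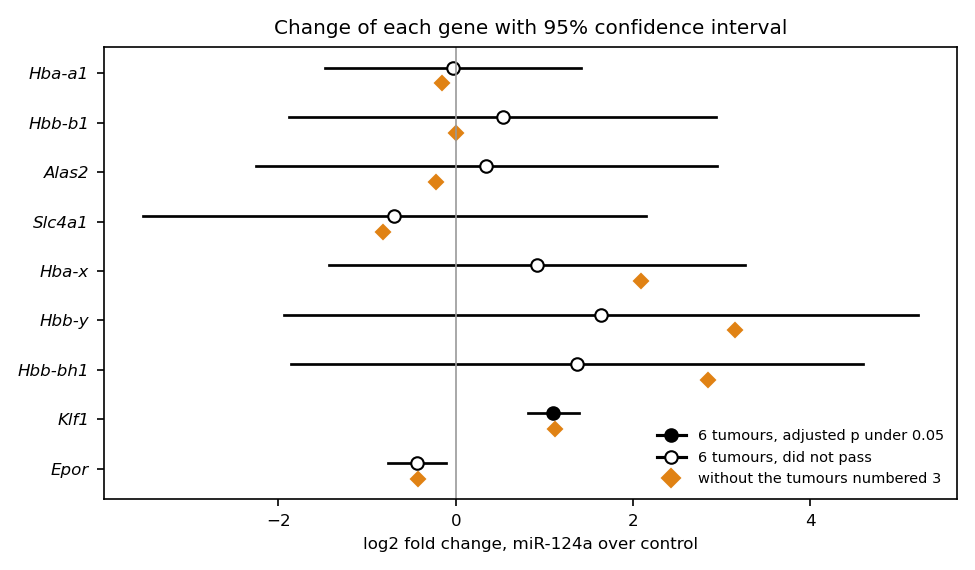
Log2 fold change of miR-124a over control tumours for each gene with its 95% confidence interval (black, 3 tumours a group) and the value without the tumours numbered 3 of both groups (orange diamonds). Klf1 at 1.10 is the only filled point, an adjusted p under 0.05, with control values not well above background. The values of Hba-x, Hbb-y and Hbb-bh1 also rest in part on control arrays not well above background. The intervals of the adult and embryonic globins, Alas2 and Slc4a1 all span 0, and Hbb-y lies at 3.15 without the tumours numbered 3, where neither control was well above background, and at 1.64 with all 6.

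The defining markers of erythroid cells were only partly seen. Gata1, the master regulator of the lineage, was not well above background on any of the 6 arrays, nor were Gfi1b, Epb42 and Rhag. Ahsp, the chaperone of free alpha-globin, was well above background on 2 of 3 arrays in each group and was therefore not tested. Its scaled signal was 4.61, 3.88 and 26.1 in miR-124a tumours, against 3.04, 7.83 and 52.1 in control tumours, with the same high tumours as Slc4a1. Of the other globins and Ahsp, 3 of 8 genes were tested and none was called by limma, with 0 at an unadjusted p under 0.05 and a median log2 fold change of 0.22.

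Heme synthesis beyond Alas2 was read from 12 genes, all tested. None was called by limma, 6 had an unadjusted p under 0.05, against 27.1% of all genes, and the median log2 fold change was −0.16. Alas1, the housekeeping form of the first enzyme, had a scaled signal of 838, 815 and 868 in miR-124a tumours, against 984, 1203 and 1057 in control tumours (log2 fold change −0.36, adjusted p = 0.106). Its values lacked the high tumours seen for Alas2. Urod, uroporphyrinogen decarboxylase, gave −0.42 with an adjusted p of 0.0796. Fech, ferrochelatase, which puts iron into heme, had 329, 344 and 614 in miR-124a tumours, against 390, 409 and 510 in control tumours, and Slc25a37, the mitochondrial iron importer mitoferrin 1, had 222, 254 and 515 in miR-124a tumours, against 264, 278 and 385 in control tumours. Those 2 were highest in the tumours numbered 3, as Alas2 was, with a narrower range.

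Among 16 transcription factors of the erythroid lineage other than Klf1, 14 were tested. None was higher and 1 was lower, against 0.501% and 2.68% of all genes. Runx1, a factor of blood stem cell formation that is also read in many other tissues, had a scaled signal of 145, 142 and 242 in miR-124a tumours, against 418, 419 and 357 in control tumours, and fell with a log2 fold change of −1.22 ± 0.22 (SE, limma adjusted p = 0.0476). Its 3 probes gave −1.22, −1.19 and −0.96. The call held without miR-124a tumour 3 but not without any of the other 5 tumours, where the adjusted p was 0.0750 to 0.154, nor without the filter on dim probes (0.106) or with array weights (0.0758). Bcl11a, the repressor of embryonic and fetal globin genes, gave 0.53 with an adjusted p of 0.0937, and Tal1 gave 0.69 with 0.187; neither passed. The median over the list was −0.11.

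Of 19 red cell membrane genes other than Slc4a1, 13 were tested. None was higher and 2 were lower, against 0.501% and 2.68% of all genes. Ank1, ankyrin 1, had a scaled signal of 278, 369 and 372 in miR-124a tumours, against 1069, 1423 and 838 in control tumours, and fell with a log2 fold change of −1.69 ± 0.22 (SE, limma adjusted p = 0.0252). Tmod1, tropomodulin 1, had 43.2, 56.2 and 66.4 in miR-124a tumours, against 159, 188 and 124 in control tumours, and fell with −1.51 ± 0.21 (SE, adjusted p = 0.0287). Both are also known from muscle, as is Sptb, beta spectrin, at −1.43 with an adjusted p of 0.0655. Of 8 skeletal muscle markers 7 were lower in miR-124a tumours, against 2.68% of all genes, with a median log2 fold change of −1.65. Their summed scaled signal was 11886 to 17280 in miR-124a tumours and 31586 to 53197 in control tumours. The part of these markers in the fall of Ank1 and Tmod1 was not tested. The 5 Ank1 probes gave log2 fold changes of −1.75 to 0.47, so its probes did not all move alike. Both calls were lost without control tumour 1, control tumour 2, miR-124a tumour 1 or miR-124a tumour 2, with adjusted p-values up to 0.109 for Ank1 and 0.111 for Tmod1, and without the filter on dim probes (0.0631 for Ank1 and 0.0717 for Tmod1).

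Erythropoietin signalling, without Epor, had 12 of 14 genes tested and none called, 2 at an unadjusted p under 0.05 and a median of −0.14. Epo itself was not well above background on any array. Stat5b, which carries the signal of the receptor to the nucleus, gave −0.55 with an adjusted p of 0.0765. Red cell enzymes and genes of maturation had 11 of 15 tested and none called, 1 at an unadjusted p under 0.05 and a median of 0.07. For iron uptake and storage, 10 of 11 were tested and 1 was lower, against 2.68% of all genes. That gene was Steap3, the ferrireductase that lets red cell precursors use the iron of transferrin. Steap3 had 46.6, 46.3 and 45.9 in miR-124a tumours, against 81.2, 89.1 and 74.9 in control tumours, and fell with −0.82 ± 0.10 (SE, limma adjusted p = 0.0220). Its call held without control tumour 3 but not without any of the other 5 tumours, where the adjusted p was 0.0538 to 0.108, nor without the filter on dim probes (0.0546). Tfr2, transferrin receptor 2, gave 0.70 with an adjusted p of 0.0755, and Tfrc, the main transferrin receptor, −0.38 with 0.136.

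Markers of other blood and vessel cells were counted because blood content could move with the globins. Megakaryocyte and platelet genes had 6 of 10 tested and none called by limma, with 0 at an unadjusted p under 0.05, and a summed scaled signal of 379 to 568 in miR-124a tumours and 421 to 641 in control tumours. Endothelial markers had 10 of 10 tested and none called, 1 at an unadjusted p under 0.05, and sums of 3268 to 4286 in miR-124a tumours and 3225 to 4116 in control tumours. The largest part of those sums was Egfl7, at 1860, 2277 and 2118 in miR-124a tumours, against 2338, 2207 and 1763 in control tumours. Leukocyte markers had 9 of 10 tested and none called, 0 at an unadjusted p under 0.05, and sums of 3694 to 4385 in miR-124a tumours and 3949 to 4527 in control tumours. S100a8, a neutrophil gene, had 67.9, 39.3 and 204 in miR-124a tumours, against 144, 165 and 231 in control tumours. The tumours numbered 3 were the highest of their groups for it and for S100a9. Over the whole list, miR-124a tumour 3 had the highest sum of its group, 4385, and control tumour 3 the lowest of its group, 3949. The platelet sum was highest of its group in miR-124a tumour 3, at 568, but in control tumour 3 it was 424, below the 641 of control tumour 1. Itgam was lowest of its group in both tumours numbered 3, at 1206 and 1133. Cd68, Adgre1, Csf1r, Cd14 and Laptm5 were lowest of the controls in control tumour 3. Of these, Adgre1, Csf1r, Cd14 and Laptm5 were highest of their group in miR-124a tumour 3. Itga2b, Gp1ba and Ly6g were not well above background on any array. The part of blood content in the globin values was not tested.

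**Figure D5:**
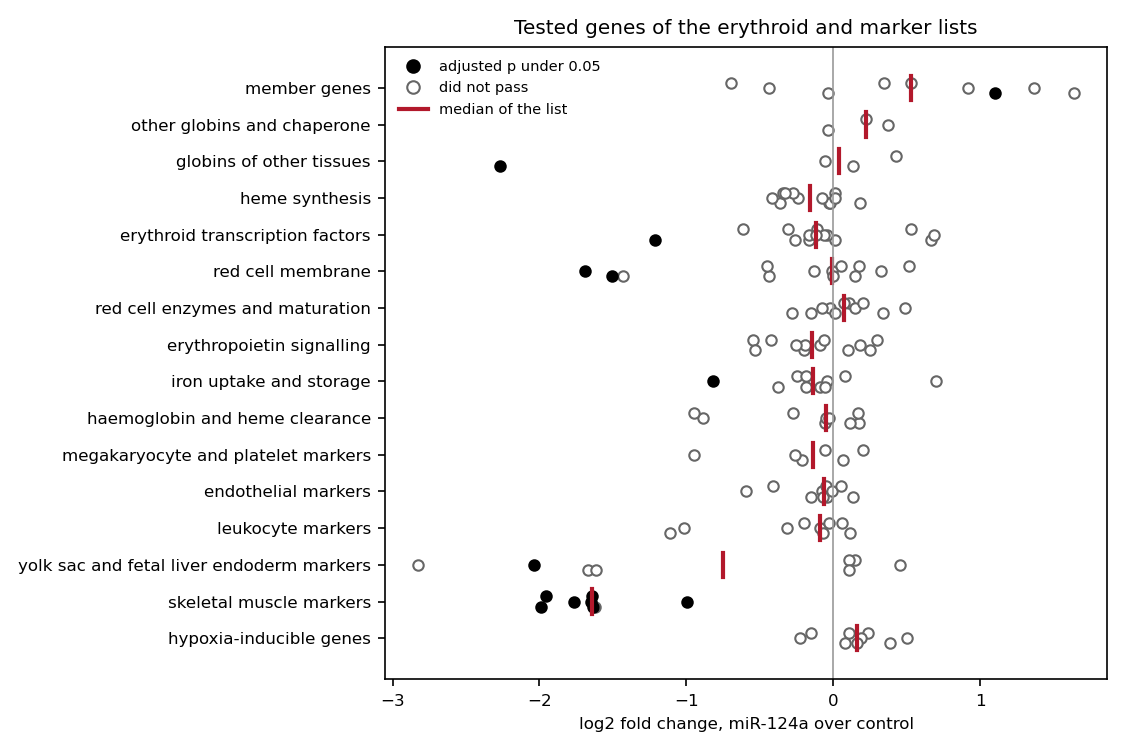
Log2 fold change of miR-124a over control tumours for each tested gene, grouped by list from the 9 genes at the top to the hypoxia-inducible genes at the bottom, with filled points for an adjusted p under 0.05 and a red bar at the median of each list. The medians of the other erythroid lists and of the iron, platelet, endothelial and leukocyte lists lie between −0.16 and 0.22. The yolk sac and fetal liver endoderm list lies at −0.75 with 1 filled point, and the skeletal muscle list at −1.65 with 7 filled points.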

How the data were processed

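Gene expression was measured in 6 teratomas on 1-colour Agilent arrays. Per the labels' protocols, RNA was labelled with Cy3, and per the submitters' processing notes the scans were read with Agilent Feature Extraction 11.5.1.1. The deposited scanner files hold processed intensity values per spot, already background-subtracted per the file headers. The authors' deposited value table holds log2 values of the same signals: it differed from log2 of the processed intensity by a constant per array (SD of the difference at most 0.0029), with a 75th percentile of 0 and medians of −2.97, −2.99 and −2.98 in miR-124a tumours and −2.98, −3.07 and −2.98 in control tumours. It is not centred by gene.

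Here spots of a probe were averaged after control spots and outliers were left out (22 probes lost), and log2 intensity minus the 75th percentile of each array was tested in limma 3.58.1 (R 4.3.3), with Benjamini-Hochberg adjustment over all genes and a threshold of 0.05. Each gene was represented by the brightest of its probes that passed the scanner's background test on the 3 arrays of either group. Scaled signal is 100 times that ratio. Symbols were updated through RefSeq by accession for 32962 probes, by symbol for 10226 and by older symbol for 519, and 12863 kept the name in the file. The fit was tested on simulated data. Differences within tumours used exact permutation (scipy 1.17.1). Genes named from a list are those past the threshold and up to 4 more with the smallest p, and the 3 nearest in profile to Hba-a1 and to Hbb-y. Others were chosen after their values were seen. They are genes given to show per-tumour patterns (Fech, Slc25a37, Ahsp, Itgam, Cd68, Adgre1, Csf1r, Laptm5) or the main part of a sum (Ttr, Egfl7, Ldha), and genes named as not well above background. The 9 genes and all lists were chosen with earlier results of these data known. Alternatives were quantile scaling, normexp with an offset of 50, the value table, filters, probe averaging, a replicate block, a variance trend, array weights, leaving out each tumour and, chosen after seeing the data, leaving out both tumours numbered 3. Arrays give no counts, and their number limits the precision.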

Additional observations from a re-analysis of the deposited data

How the results depend on the processing

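Of the 730 genes called (115 higher, 615 lower), normexp gave 1537 (574 higher, 963 lower, 62.7% lower against 84.2%), a variance trend 1588, no filter 81, leaving out both tumours numbered 3 gave 116 and the replicate block 0, with 4954 at an unadjusted limma p under 0.05. The numbers do not pair the tumours: deviations of same-numbered tumours correlated at −0.155, −0.039 and −0.065, and no tumour correlated best with its own number. Leaving out 1 tumour gave 0 to 365 genes: 1, 0 and 365 without miR-124a tumours 1 to 3 and 12, 0 and 336 without control tumours 1 to 3, where the counts of 0 stood beside 4076 and 4732 genes at an unadjusted p under 0.05. The call of Klf1 was lost with normexp (0.13), no filter (1.10), the replicate block (1.10) and without both tumours numbered 3 (1.12), so that the count among the 9 genes was 0 there, also 0 with probes required on all 6 arrays, which leaves Klf1 out, and 0 to 1 with 1 tumour left out (1.04 to 1.19). The replicate block changed the call of no other of the 9 genes.

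Values that turned sign were all uncalled. Hba-a1 gave 0.12 with quantile scaling, 0.12 with normexp, 0.20 with averaged probes, 0.17 with array weights and −0.58 to 0.39 with 1 tumour left out. Hba-a2 gave 0.14, 0.10 and 0.16 with quantile scaling, normexp and array weights, and −0.57 to 0.38. Alas2 gave −0.22 without both tumours numbered 3 and −0.84 to 1.04 with 1 tumour left out, Slc4a1 0.042 with array weights and −1.78 to 0.27, Hbb-b1 −0.54 to 1.25, Hbb-b2 −0.58 to 1.02, Hbb-bt −0.66 to 0.91 and Hba-x −0.11 to 1.91. Hba-x minus Hba-a1 gave −0.036 with normexp and −0.050 to 1.68 with 1 tumour left out, and Hbb-y minus Hbb-b1 gave −0.46 with normexp. Adgb gave −0.13 without both tumours numbered 3 and −0.061 to 0.34, Cygb 0.011 with quantile scaling, 0.046 with normexp and −0.24 to 0.11, Prdx2 0.021 with quantile scaling, Ppbp −1.86 to 0.16, Pf4 −0.40 to 0.044 and Cldn5 −0.083 to 0.34. List counts moved too. Transcription factors had 2 calls with normexp, 0 without the filter, with the block and with array weights, and 0 to 1 with 1 tumour left out. Membrane genes had 4 with the trend, 0 without the filter, with the block and without both tumours numbered 3, and 0 to 2. Iron genes had 0 in those last 3 settings and 0 to 1, heme synthesis 1 with the trend, erythropoietin signalling 1 with normexp and 1 with the trend, clearance 0 to 1 and muscle markers 0 to 6 with 1 tumour left out. The causes were not tested. Signal near background limits Hba-x, Hbb-y, Hbb-bh1 and Klf1.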

Other observations

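Of 4 globins of other tissues, 1 was called by limma, Mb, against 3.18% of all genes, and their median log2 fold change was 0.04. Mb, the myoglobin of muscle, had a scaled signal of 612, 411 and 1166 in miR-124a tumours, against 3040, 3264 and 3287 in control tumours, and fell with a log2 fold change of −2.27 ± 0.36 (SE, limma adjusted p = 0.0360). The call held without miR-124a tumour 3 but not without any of the other 5, where the adjusted p was 0.0720 to 0.141, nor without the filter on dim probes (0.0864) or with array weights (0.0588). All miR-124a tumours were below all control tumours, where 35.4% of all genes tested had groups that did not overlap. Of 8 skeletal muscle markers 7 were called lower too, against 2.68% of all genes. Ngb, the neuroglobin of nerve cells, had 5.08, 9.29 and 5.61 in miR-124a tumours, against 3.92, 6.81 and 4.05 in control tumours, and was not called (adjusted p = 0.399). Cygb, cytoglobin, gave −0.06 and Adgb, androglobin, 0.14, also not called.

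Genes that clear haemoglobin and heme had 9 of 9 tested and none called by limma, 2 at an unadjusted p under 0.05 and a median log2 fold change of −0.05. Hp, haptoglobin, which binds free haemoglobin, had 141, 128 and 222 in miR-124a tumours, against 294, 343 and 251 in control tumours (−0.89, adjusted p = 0.0881). Hpx, hemopexin, which binds free heme, gave −0.95 with an adjusted p of 0.0761, and 1 of 3 miR-124a arrays and 3 of 3 control arrays read it well above background. Hypoxia-inducible genes had 9 of 9 tested and none called, 0 at an unadjusted p under 0.05 and a median of 0.16, with 7 genes above 0 and 2 below. Their sums of scaled signal were 20322 to 24482 in miR-124a tumours and 20811 to 25315 in control tumours. Most of that sum was Ldha, at 13870, 15918 and 14421 in miR-124a tumours, against 17932, 16951 and 14383 in control tumours (log2 fold change −0.15). Among yolk sac and fetal liver endoderm markers 1 of 8 was called lower, Apoa4, against 2.68% of all genes. Apoa4 had 4.37, 4.90 and 3.93 in miR-124a tumours, against 13.7, 21.7 and 19.8 in control tumours (−2.04, limma adjusted p = 0.0198). That call was lost without control tumour 2, miR-124a tumour 1 or miR-124a tumour 2, with adjusted p-values up to 0.0925, and without both tumours numbered 3 (0.0689), and with normexp the value was −0.50. Among genes well above background on all 6 arrays and outside the set, 3 were named as nearest to Hbb-y. They were 9230102O04Rik at 1.26, Tuba3b, an alpha-tubulin, at 1.34 and Cnpy1 at 1.40 root mean square log2 difference. Hbb-y and Hbb-bh1 do not pass that filter themselves, so the 0.375 between them cannot be set against these distances.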
